A study of Homo sapiens with 42 samples.

Results

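COPB2 was knocked down with a single hairpin, COPB2 shRNA 1, in IMR90 human lung fibroblasts made senescent with bleomycin, and the poly(A) RNA was compared with that of bleomycin-treated IMR90 carrying a control shRNA. The 8 libraries of this comparison, 4 with COPB2 shRNA 1 and 4 with the control shRNA, were taken from the 42 libraries of the series by their labels, and libraries with the same replicate number were compared as a pair. Cells of both groups received 50 µg/ml bleomycin for 24 h, were grown for 7 days, and were then given 1 µg/ml doxycycline for 72 h before collection on day 10. The other groups hold IMR90 treated with DMSO, or carry a second COPB2 hairpin, or express an ER:RAS fusion that 4OHT activates to give oncogene-induced senescence (OIS).

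The COPB2 shRNA was doxycycline-inducible, in a Tet-ON vector, and controls were exposed to doxycycline too. The control is labelled an shRNA control, its column tag is shEV and its sequence is not stated. Whether the controls expressed a hairpin is therefore not known. The labels give the genotype as WT and do not say whether replicates came from separate cultures. The study describes the replicates of its COPB2 knockdown RNA-seq as independent experiments, but for fewer replicates than the 4 a group deposited here, so which libraries that covers is not known. Unless another fit is named, the p-values below measure the spread between libraries left after fitting group and replicate number within each treatment. That spread was shared over the IMR90 libraries given bleomycin or DMSO, the second hairpin included. It was not taken from the 8 libraries alone. Total counts of the 8 libraries ran from 15580424 to 19409645, and a count of 3 in a library, used here as the floor, corresponded to a normalised level of 0.155 to 0.193 CPM, the unit in which levels are given (read counts scaled to library size).

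COPI coats vesicles that bud from the Golgi and carry proteins back to the endoplasmic reticulum (ER) and between Golgi cisternae. COPB2 encodes β′-COP, a subunit of its coatomer. A block in this traffic is known to disturb protein folding in the ER, which cells sense through the unfolded protein response. One arm of that response runs through the kinase PERK to the transcription factor ATF4 and on to DDIT3 (CHOP), and the other arms, through ATF6 and IRE1 with XBP1, raise chaperones and degradation factors such as HERPUD1.

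The guide strands of the 2 COPB2 hairpins are shown because they name the site each one addresses. The study's list calls them COPB2.1 and COPB2.2 and the labels call them shRNA 1 and shRNA 2, so they were matched by number alone. Capitals mark bases 2 to 8, the seed:
COPB2.1: tTAAATATctttacaatgctgt
COPB2.2: tAATTGAAcactctaatctgca
The target of COPB2.1 read on the COPB2 strand, with GRCh37 coordinates, is the following:
COPB2.1 target: acagcattgtaaagatatttaa
It lies at chr3:139088345-139088366 on the minus strand, in coding exon 11 of 22 of COPB2, and COPB2 was the sole gene whose canonical transcript held the whole sequence. The COPB2.2 target lies at chr3:139097987-139098008, in coding exon 4 of 22.

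The senescent state and the cell type were checked before any comparison. CDKN1A, which encodes the cell cycle inhibitor p21, was at 2370 to 4370 CPM in the bleomycin control libraries and at 388 to 1000 CPM in the DMSO control libraries. LMNB1, a nuclear lamina gene that senescent cells lose, was at 1.22 to 3.2 CPM against 9.75 to 13.6 CPM, and the proliferation marker MKI67 was at 0.212 to 1.99 CPM against 5.39 to 8.03 CPM. For each of these genes the bleomycin and DMSO controls did not overlap. All 12 lung fibroblast markers were detected in the 8 libraries, where COL1A1, COL1A2, VIM and FN1 never fell under 19915 counts. Of 11 epithelial markers, KRT5, SCGB1A1 and SFTPC stayed at or under 3 counts in every one of the 8 libraries, as did MS4A1 among 8 leukocyte markers. Other members of these lists were detected, with KRT18 at 928 to 2565 counts, KRT8 at 272 to 500 and KRT19 at 54 to 628 among the epithelial markers, and CD68 at 997 to 2206 among the leukocyte markers.

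Replicate 4 stood apart from replicates 1 to 3 in both groups. Its control library held CXCL8, a neutrophil chemokine of the senescence-associated secretory phenotype (SASP), at 1220 CPM, where the other 3 control libraries held 39.6 to 107 CPM. Its shRNA 1 library held CXCL8 at 9380 CPM, where the other 3 held 42.7 to 90.9 CPM. Results are therefore given with and without both libraries of replicate 4.

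COPB2 itself was reduced in all 4 pairs. The control libraries held 422, 422, 566 and 511 CPM of COPB2 (gene at chr3:139072788-139108578, minus strand, GRCh37) in replicates 1 to 4. The shRNA 1 libraries held 89.2, 106, 119 and 94.9 CPM. The groups did not overlap, and the highest shRNA 1 library was far under the lowest control. The means were 480 ± 71 CPM and 102 ± 13.1 CPM (SD, n = 4), the fitted log2 fold change was -2.23 with an SE of 0.09, and edgeR's quasi-likelihood test gave an adjusted p of 2.38e-11. Without replicate 4 the log2 fold change was -2.16 with an adjusted p of 8.96e-09 by the same test.

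Of 14783 genes tested, 35 passed an adjusted p of 0.05 with edgeR's quasi-likelihood test, which is 0.237%. Of these, 30 were higher with shRNA 1 (0.203% of genes tested) and 5 were lower (0.0338%). All 35 moved one way in all 4 pairs, as 23.5% of the genes tested did, and in 13 of the 35 the 2 groups did not overlap, as in 1.1% of the genes tested. Without replicate 4, 3 genes passed: COPB2, its partner subunit gene COPB1 and the folate enzyme gene MTHFD2. All 35 kept their direction there, with an unadjusted p under 0.05 in each (edgeR). The 35 were chosen on these same pairs, so their shared direction, non-overlap and unadjusted p-values are descriptions and not separate support. The count rested on the replicate block and on the spread shared by the 24 IMR90 libraries, since 1 gene, COPB2, passed without the block and 1, again COPB2, passed when the 8 libraries were fitted alone. DESeq2's Wald test with the same block called 165.

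**Figure D1:**
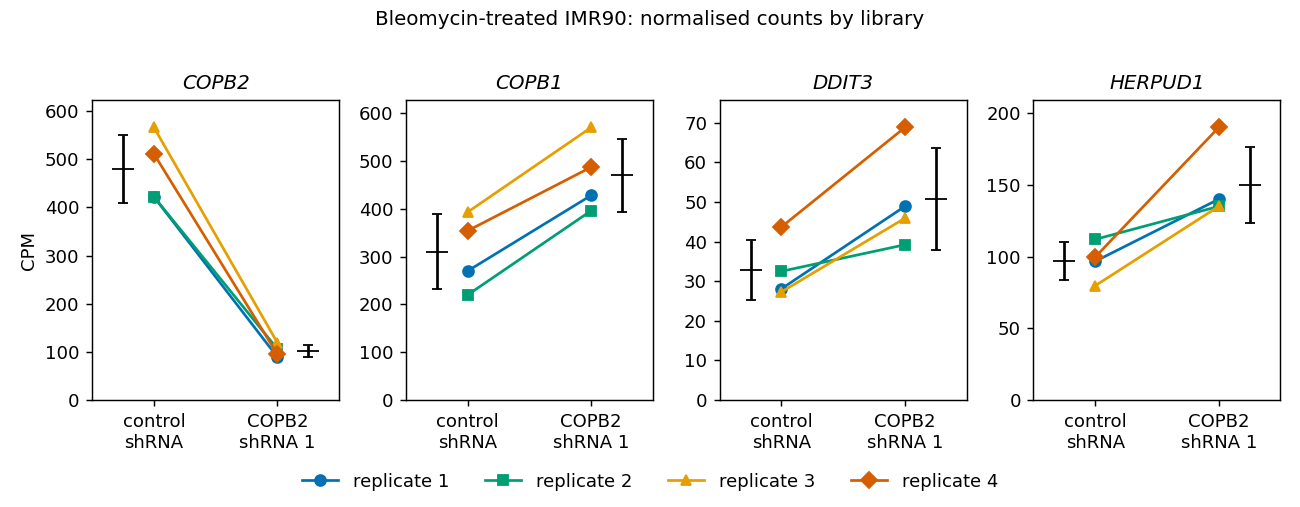
CPM (vertical axis, from 0) of COPB2, COPB1, DDIT3 and HERPUD1 in the 8 libraries, with same-numbered libraries joined and the group mean ± SD (n = 4) drawn beside them. COPB2 fell from 422 to 566 CPM to 89.2 to 119 CPM, and the other 3 genes were higher with shRNA 1 in each of the 4 pairs.

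DDIT3, which encodes the stress transcription factor CHOP, was higher with shRNA 1 in every pair. Its control libraries held 28.1, 32.5, 27.3 and 43.7 CPM and its shRNA 1 libraries 48.9, 39.2, 45.9 and 68.8 CPM in replicates 1 to 4. Control replicate 4 lay above shRNA 1 replicate 2, so the groups overlapped although each pair rose. The log2 fold change was 0.62 with a 95% interval of 0.4 to 0.84 and an adjusted p of 0.0179 (edgeR). Without replicate 4 it was 0.61, with an adjusted p of 0.142 by the same test, so the size held and the call did not. DDIT3 (chr12:57910371-57915520, minus strand, GRCh37) overlaps MIR616 and ENSG00000285133 on its own strand and MARS1 and MBD6 on the other, and reads of overlapping genes cannot be told apart where the counting mode is not stated. MARS1 had a log2 fold change of 0.15. HERPUD1, COPB1 and MTHFD2 also overlap annotated genes on their own strands, so the same limit holds for them.

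HERPUD1 takes part in the degradation of misfolded ER proteins. The control libraries held 96.7, 112, 79.7 and 99.7 CPM and the shRNA 1 libraries 140, 135, 135 and 190 CPM. The groups did not overlap, and shRNA 1 replicate 4 was the highest library. The log2 fold change was 0.62 with a 95% interval of 0.42 to 0.83 and an adjusted p of 0.0143 (edgeR). Without replicate 4 it was 0.52 with an adjusted p of 0.0911.

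COPB1, which encodes the coatomer subunit β-COP, was the called member of the other 8 COPI subunit genes. Its control libraries held 270, 220, 393 and 354 CPM and its shRNA 1 libraries 428, 396, 570 and 487 CPM. Every shRNA 1 library was above every control library. COPB1 (chr11:14464986-14521573, minus strand, GRCh37) rose by 0.63 on the log2 scale (SE 0.08), with an adjusted p of 0.00201 in edgeR's test, and without replicate 4 it was 0.68 with an adjusted p of 0.00861. The remaining 7 subunit genes lay between -0.08 and 0.1 on the log2 scale, and none had an unadjusted p under 0.05. COPA, the α subunit gene, was at 518 to 603 CPM with shRNA 1 and 541 to 661 CPM in the controls, and the δ subunit gene ARCN1 was at 432 to 470 CPM and 375 to 453 CPM.

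Genes of the traffic steps around COPI gave few calls and small shifts. Among 32 COPI regulators and cargo receptors, none passed the adjusted test, 7 were higher and 0 lower at an unadjusted p under 0.05 (of all genes tested, 6.86% were higher and 4.55% lower at that level), and the median log2 fold change was 0.1, beside 0.02 over all genes tested. The SNARE gene GOSR1 (0.28) and the ARF GTPase activator ARFGAP3 (0.24) were among the 7. The COPII coat, which moves cargo out of the ER, gave a median of 0.14 over the 25 genes that passed the filter of 26 listed, with 9 higher and 1 lower at an unadjusted p under 0.05 and no call. The inner coat gene SEC23A was at 0.34 and the cargo receptor LMAN1 at 0.46. Among 25 Golgi structure and tether genes, 1 passed, 11 were higher at an unadjusted p under 0.05, and 23 of 25 had a log2 fold change above 0, with a median of 0.22. That one was COG6, a subunit of the Golgi tethering COG complex, at 56.7 CPM in the controls and 82.1 CPM with shRNA 1 on average (log2 fold change 0.6, adjusted p 0.047, edgeR). Without replicate 4 COG6 was at 0.63 (adjusted p 0.248, edgeR), the Golgi median was 0.17, 23 of the 25 were again above 0 and none passed. Of the 11 CREB3-family Golgi stress genes that passed the filter of 12 listed, none passed the test, and the median was 0.14.

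The PERK and ATF4 arm held the most calls of any list. Of 33 genes listed, 32 passed the filter on low counts, 9 were called higher and none lower, against 0.203% of all genes called higher. All lists were chosen with earlier results of these data known, so counts over them are descriptions and not separate support. All 32 had a log2 fold change above 0, as did 7895 of the 14782 genes tested other than COPB2. Of the 32, 21 were higher at an unadjusted p under 0.05. In all 4 pairs 19 were higher and none lower, as 13.1% and 10.4% of the genes tested were. The median was 0.4. Without replicate 4 the median was 0.31 and 28 of the 32 were above 0. Over all genes other than COPB2 tested in both fits, 7659 of 14756 were. Of the 32, 17 were then higher at an unadjusted p under 0.05, and 1 passed the adjusted test. The median of the 4 pairs ran from 0.16 in pair 2 to 0.54 in pair 4, so each pair had a median above 0.

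MTHFD2, the mitochondrial folate enzyme, was that one. Its control libraries held 75.4, 86.3, 86.6 and 78.3 CPM and its shRNA 1 libraries 132, 115, 150 and 140 CPM. The groups did not overlap. MTHFD2 (chr2:74413299-74444692, plus strand, GRCh37) rose by 0.71 on the log2 scale (SE 0.08, adjusted p 0.000784, edgeR), and by 0.67 without replicate 4 (adjusted p 0.0266).

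ATF4 itself held 156, 209, 142 and 211 CPM in the controls and 240, 223, 220 and 328 CPM with shRNA 1. The smallest shift was in pair 2, at 0.09 on the log2 scale, and the other pairs lay at 0.62 to 0.64. The groups did not overlap. The fitted change was 0.5 (adjusted p 0.0206, edgeR), and without replicate 4 it was 0.45 (adjusted p 0.194).

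TRIB3, a pseudokinase gene that ATF4 and CHOP are known to induce, held 37.9, 41.7, 21.2 and 39.2 CPM in the controls and 66.9, 53, 44 and 110 CPM with shRNA 1. Its log2 fold change was 0.94 (adjusted p 0.0165, edgeR) and 0.73 without replicate 4 (adjusted p 0.0801). CHAC1, whose product degrades glutathione, went from 21.2, 19.1, 12.5 and 22.9 CPM to 30.6, 24.6, 23.7 and 51.6 CPM. Its log2 fold change was 0.76, and 0.6 without replicate 4 (adjusted p 0.194). For both genes pair 2 gave the smallest shift and pair 4 the largest.

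The other called members were INHBE, an inhibin subunit gene (1.7), CTH, the enzyme that makes cysteine from cystathionine (1), CEBPG, a partner of ATF4 on DNA (0.77), and the amino acid transporter gene SLC7A5 (0.6). INHBE was scarce, at 0.238 to 1.65 CPM in the controls, whose lowest library lay just above the floor. It was at 1.91 to 5.3 CPM with shRNA 1. Without replicate 4 the log2 fold changes were 1.75 for INHBE, 0.89 for CTH, 0.76 for CEBPG and 0.52 for SLC7A5, and none of the 4 passed. Members just short of the threshold included EIF2AK3, which encodes PERK, at 0.61 and the arginine transporter gene SLC7A1 at 0.69. ATF3, another stress transcription factor gene, was at 0.27. ASNS, an amino acid synthesis gene usually counted among ATF4 targets, was listed at 0.0594 to 0.552 CPM in the controls and 0.367 to 1.12 CPM with shRNA 1, so 2 control libraries were under the floor. The annotation puts ENSG00000284707 over ASNS on the same strand. No change is read from ASNS.

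Called genes outside the lists included PCK2, the mitochondrial form of the gluconeogenic enzyme PEPCK. PCK2 held 18.5, 28.5, 11.9 and 20.7 CPM in the controls and 27.2, 32.9, 28.2 and 35 CPM with shRNA 1, a log2 fold change of 0.68, and 0.66 without replicate 4. ADM2, which encodes a peptide hormone of the adrenomedullin family, was higher in all 4 pairs, at 2.79 to 6.08 CPM in the controls and 8.73 to 13.4 CPM with shRNA 1, a log2 fold change of 1.22, and 1.12 without replicate 4. MFSD2A, a lysolipid transporter gene, was at 5.88 to 10 CPM and 10.8 to 31.8 CPM, where the highest value was replicate 4. Its log2 fold change was 1.11, and 0.87 without replicate 4, where none of PCK2, ADM2 and MFSD2A passed.

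In the ATF6 and XBP1 arm, HERPUD1 was the 1 called gene of 40. Of the 40, 35 had a log2 fold change above 0, 17 were higher and 1 lower at an unadjusted p under 0.05, and the median was 0.2. Without replicate 4 the median was 0.13, 29 of the 40 were above 0, and 9 were higher at an unadjusted p under 0.05. DNAJB9, an ER co-chaperone gene, held 52.6, 27.3, 57.6 and 76.5 CPM in the controls and 65.9, 45.6, 78.3 and 149 CPM with shRNA 1, and missed the threshold (log2 fold change 0.62, adjusted p 0.0506, edgeR). HSPA5, which encodes the main ER chaperone BiP, held 859, 1060, 840 and 1220 CPM and 1050, 1220, 1080 and 1930 CPM, a log2 fold change of 0.38 (adjusted p 0.148). Pair 4 gave the largest shift of both genes.

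Of 20 cytosolic tRNA synthetase genes, TARS1, which charges threonyl-tRNA, was called. TARS1 was at 109 to 172 CPM in the controls and 151 to 213 CPM with shRNA 1, with a log2 fold change of 0.4 (adjusted p 0.0325, edgeR), and 0.4 without replicate 4 (adjusted p 0.199). The list's median was 0.11, 11 members were higher in all 4 pairs and none lower in all 4, and 7 were higher at an unadjusted p under 0.05. The median without replicate 4 was 0.12.

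Further called genes work at the ER and Golgi and were on no list. SERP1, which stabilises new membrane proteins, was at 135 to 196 CPM in the controls and 174 to 248 CPM with shRNA 1 (0.33 on the log2 scale). SRP54, a signal recognition particle subunit gene, was at 0.39. YIPF5, a membrane protein of the ER to Golgi route, was at 0.35. TMEM38B, an ER cation channel gene, was at 0.52. GFPT1, the entry enzyme of the hexosamine pathway that feeds glycosylation, was at 0.39. In all 5 the ranges of the groups overlapped while each of the 4 pairs rose. Without replicate 4 SERP1, SRP54, YIPF5, TMEM38B and GFPT1 were at 0.34, 0.37, 0.37, 0.48 and 0.4, and none passed.

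**Figure D2:**
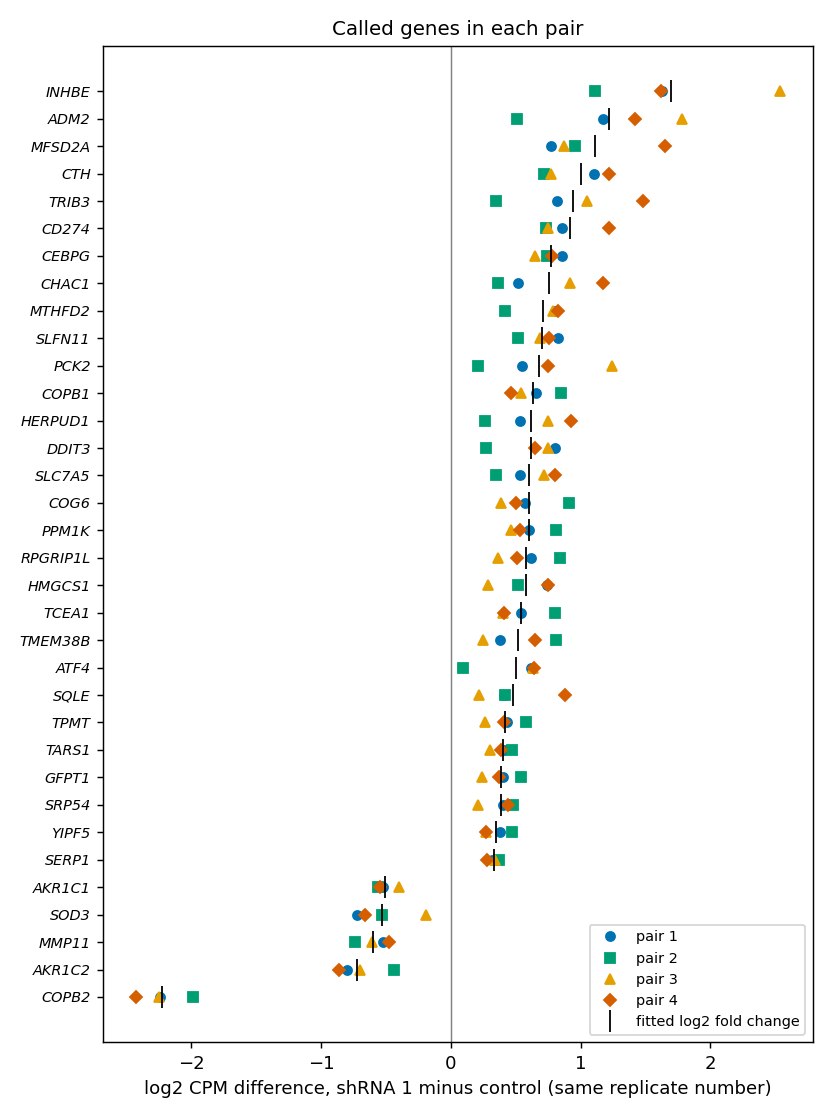
Log2 CPM difference (horizontal axis) between the shRNA 1 and control library of each same-numbered pair for 34 of the 35 called genes, with the fitted log2 fold change as a bar. The 29 genes to the right of 0 and the 5 to the left hold their side in all 4 pairs, and pair 2 gives the smallest shift of ATF4, DDIT3, HERPUD1 and TRIB3.

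Promoter sequence is shown for HERPUD1 and COPB1 because each holds a known stress element and rose. In the windows of 300 bases around the start, from RefSeq on GRCh38.p14, 4 motifs were searched on both strands. They were ERSE and ERSE-II, taken by name, UPRE (TGACGTGG) and CARE (TGATGNAAT), and they were held by 0.0769%, 0.0541%, 0.729% and 0.991% of 35116 windows. The HERPUD1 window (chr16:56931892-56932191, plus strand) has ERSE-II in capitals and the COPB1 window (chr11:14499762-14500061, minus strand) has UPRE, read on the other strand, in capitals:
HERPUD1: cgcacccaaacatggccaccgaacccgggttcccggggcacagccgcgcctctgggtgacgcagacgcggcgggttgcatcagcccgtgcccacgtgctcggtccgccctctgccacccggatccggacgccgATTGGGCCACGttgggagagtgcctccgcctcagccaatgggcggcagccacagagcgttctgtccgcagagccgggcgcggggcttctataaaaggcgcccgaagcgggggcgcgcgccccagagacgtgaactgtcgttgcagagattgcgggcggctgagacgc
COPB1: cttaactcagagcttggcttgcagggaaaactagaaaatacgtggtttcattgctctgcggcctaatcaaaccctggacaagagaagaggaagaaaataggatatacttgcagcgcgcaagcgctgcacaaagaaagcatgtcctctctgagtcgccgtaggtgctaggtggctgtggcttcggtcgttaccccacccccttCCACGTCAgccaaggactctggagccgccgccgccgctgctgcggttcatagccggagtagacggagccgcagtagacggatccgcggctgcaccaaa
Of 31 called genes with a window, 5 held any of the 4. The others were COPB2 with UPRE, SERP1 with ERSE and TARS1 with CARE. The shares above are by window and by motif, whereas the 5 are genes with any motif, so they have no matched share beside them. DDIT3, MTHFD2, TRIB3 and ATF4 held none of these letters in their windows, and a match is a description of the letters only.

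Genes of sterol synthesis gave 3 calls, all higher, among 24. SQLE, which makes squalene epoxide, held 85.4, 72.2, 108 and 61.5 CPM in the controls and 113, 96.6, 126 and 113 CPM with shRNA 1. Its log2 fold change was 0.48 (adjusted p 0.0206, edgeR) and 0.35 without replicate 4, and its pair 4 shift, 0.88, was the largest of the 4. HMGCS1, an early enzyme gene of the pathway, was at 0.58 (adjusted p 0.0319) and at 0.52 without replicate 4. Of all genes tested, 0.203% were called higher. Over the list the median was 0.31, 16 genes were higher and none lower in all 4 pairs (13.1% of all genes were higher in all 4), and 14 were higher at an unadjusted p under 0.05 (6.86% of all genes). Pairs 1 to 3 had medians of 0.15 to 0.22 and pair 4 had 0.64. Without replicate 4 the median was 0.2 and no gene of the list passed.

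The SASP genes differed between pair 4 and the rest. Of 52 listed, 48 passed the filter and none was called. The median log2 fold change was 0.43 with all 4 pairs and -0.03 without replicate 4. By pair it was -0.21, 0.17, -0.06 and 1.18, and 39 of the 48 genes were higher in pair 4 where 10, 30 and 20 were in pairs 1 to 3. Over all 14782 genes tested other than COPB2, 7576 were higher in pair 4 and 7181, 7881 and 7254 in pairs 1 to 3.

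IL6, a cytokine of the SASP, held 21.7, 19.8, 7.61 and 199 CPM in the controls and 13.1, 23.2, 7.6 and 1050 CPM with shRNA 1. Its log2 fold change was 0.69 (adjusted p 0.522, edgeR) and -0.14 without replicate 4. IL1A, an upstream cytokine of the secretory programme, held 5.03, 0.799, 3.45 and 10 CPM and 4.95, 0.839, 3.28 and 79.2 CPM. In replicates 1 to 3 neither gene was higher with shRNA 1 in all pairs, and IL6 was lower in pair 1, whereas in replicate 4 both were far above the control. MMP3, a matrix protease gene, went from 34.4, 8.17, 14.6 and 95.4 CPM to 28.1, 11.6, 12.1 and 1080 CPM. CSF3, a granulocyte growth factor gene, had the highest log2 fold change of the genes that were high in all 4 pairs, 3.03 (adjusted p 0.165), and 0.64 without replicate 4. Its control libraries held 1.01, 0.246, 0.119 and 25.7 CPM and its shRNA 1 libraries 1.22, 0.671, 0.164 and 404 CPM, so replicate 3 was at or near the floor in both groups. IL11 held 39.7, 21.9, 26.5 and 167 CPM and 41.6, 31.1, 32.4 and 728 CPM.

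**Figure D3:**
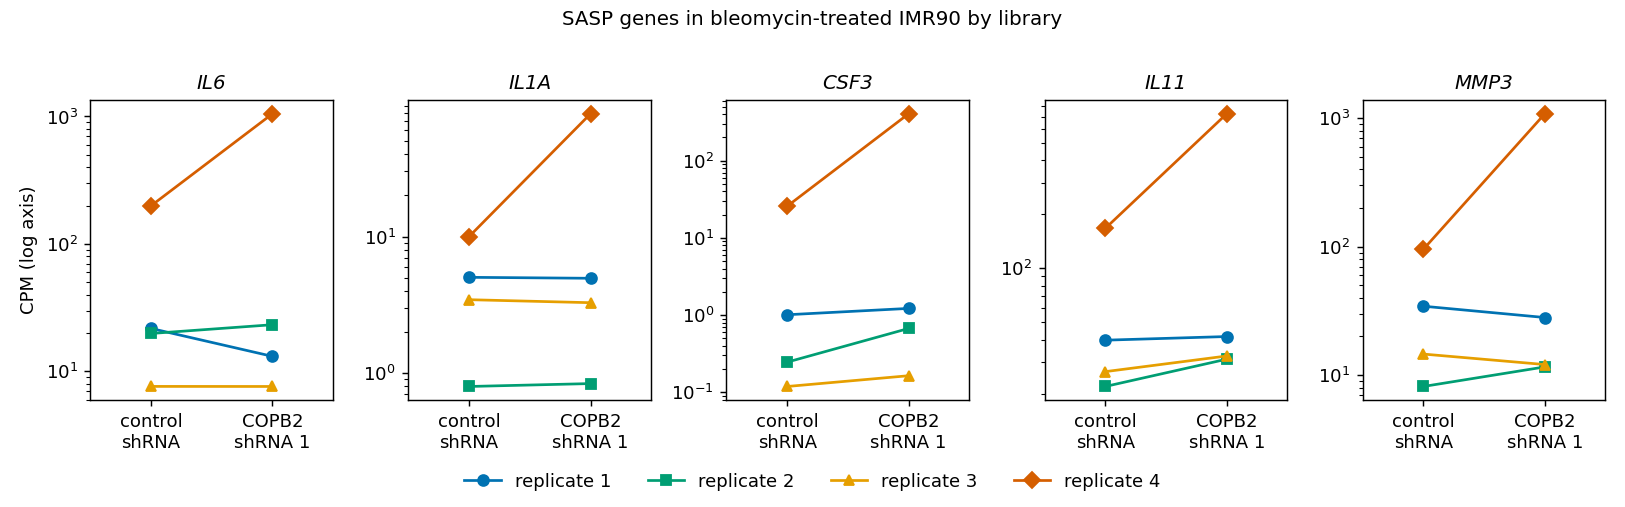
CPM on a log axis of the SASP genes IL6, IL1A, CSF3, IL11 and MMP3 in the 8 libraries, with same-numbered libraries joined. In each panel replicate 4 lies above the other 3 replicates in both groups, and its line climbs most, IL6 from 199 to 1050 CPM.

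Matrix genes went the other way in pair 4. The 28 collagen and secretory cargo genes had a median of -0.14 with all pairs and 0.05 without replicate 4, and 1 of 28 was higher in pair 4, where 7576 of 14782 genes were. COL1A1 held 2000, 4670, 1960 and 3070 CPM in the controls and 1770, 4230, 2000 and 1010 CPM with shRNA 1, with a log2 fold change of -0.45 (adjusted p 0.362, edgeR) and -0.1 without replicate 4. The 12 fibroblast markers had a median of -0.21 and the 7 smooth muscle markers -0.3, with pair 4 at -0.73 and -1.09. Summed, the fibroblast markers were at 17600 to 27900 CPM in the controls and 12500 to 26500 CPM with shRNA 1, where the lowest was replicate 4. The smooth muscle markers summed to 718 to 1720 CPM and 415 to 1430 CPM, replicate 4 again the lowest of each group. Fewer cells of a kind and less RNA per cell cannot be told apart in bulk RNA. Of the other cell types, epithelial markers summed to 74.5 to 218 CPM in the controls and 75.7 to 179 CPM with shRNA 1, endothelial markers to 18.5 to 44.4 CPM and 20.3 to 33.7 CPM, and leukocyte markers to 64 to 110 CPM and 57.2 to 115 CPM, and the epithelial sum was lowest in replicate 4 of each group. The part of these markers in the results was not tested.

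**Figure D4:**
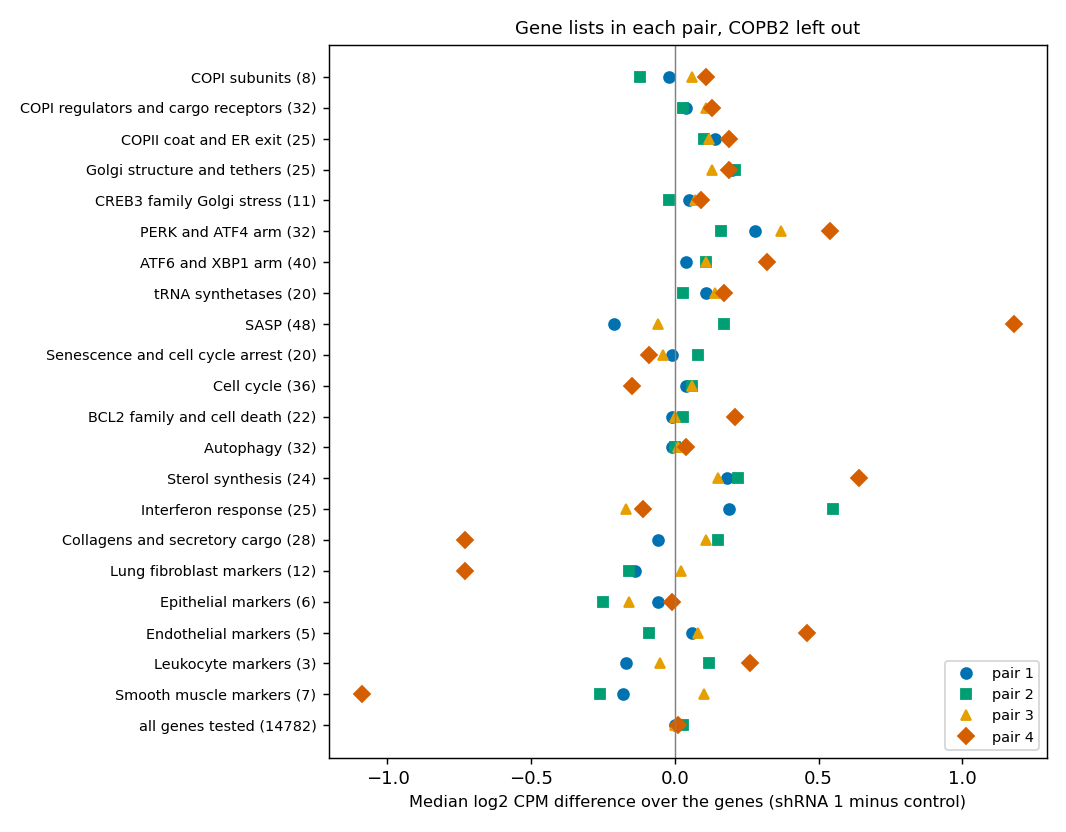
Median log2 CPM difference (horizontal axis) over the genes of each list in each same-numbered pair, COPB2 left out, with the number of genes that passed the filter in brackets. The PERK and ATF4 arm lies above 0 in all 4 pairs (0.16 to 0.54), whereas the SASP, at 1.18, and the collagens, at -0.73, stand off in pair 4.

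Genes of arrest, division, death and autophagy gave no call. The 20 arrest genes had a median of 0.03. CDKN1A held 4370, 3640, 3420 and 2370 CPM in the controls and 3720, 3190, 3060 and 2220 CPM with shRNA 1, lower in each of the 4 pairs (log2 fold change -0.17, adjusted p 0.503, edgeR). CDKN2B, the inhibitor p15, was at 0.25. The 36 cell cycle genes had a median of -0.05 and summed to 456 to 493 CPM in the controls and 432 to 469 CPM with shRNA 1. The medians of the 22 BCL2 family and cell death genes and of the 32 autophagy genes were 0.06 and 0.01. Among them BCL2A1, a survival gene, was at 1.39 (52.8 CPM in shRNA 1 replicate 4 against 9.87 CPM in its control, and at most 1.96 CPM in the other 6 libraries) and PMAIP1, which encodes the death protein NOXA, at 0.51, both short of the adjusted threshold. Of the 25 interferon response genes that passed the filter, none passed the test, and the medians by pair were 0.19, 0.55, -0.17 and -0.11.

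The 4 genes called lower beside COPB2 were on no list. AKR1C1, an aldo-keto reductase gene, held 44, 50.9, 29.6 and 62.4 CPM in the controls and 30.6, 34.5, 22.4 and 42.5 CPM with shRNA 1, and fell by 0.51 on the log2 scale (adjusted p 0.0143, edgeR). Its near-identical paralogue AKR1C2 was at -0.72, and since counting may split reads between the copies, both values are uncertain. MMP11, a stromelysin gene, was at 4.4 to 6.64 CPM in the controls and 2.84 to 4.28 CPM with shRNA 1, and the groups did not overlap (-0.6). SOD3, the extracellular superoxide dismutase gene, was at -0.53. Without replicate 4 these 4 lay between -0.66 and -0.49, and none passed.

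The last called genes were on no list. CD274, which encodes the immune checkpoint ligand PD-L1, held 4.24, 3.2, 5.47 and 4.03 CPM in the controls and 7.77, 5.37, 9.29 and 9.53 CPM with shRNA 1. It rose by 0.92 on the log2 scale (adjusted p 0.0165, edgeR), and by 0.8 without replicate 4 (adjusted p 0.194). SLFN11, which acts at stalled replication forks, was at 0.7. TCEA1, a transcription elongation factor gene, was at 0.54, the ciliary gene RPGRIP1L at 0.58, the mitochondrial phosphatase gene PPM1K at 0.6 and the drug-metabolising gene TPMT at 0.42. Without replicate 4 these 5 were at 0.67, 0.58, 0.61, 0.62 and 0.43, and none passed.

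The fixed rule also named 15 genes that moved one way in all 4 pairs and missed the threshold. Of the higher ones beside CSF3 and IL11, ALDH1L2, a mitochondrial folate enzyme gene, was at 0.95 and at 1.09 without replicate 4, and NIBAN1, a stress-induced gene, at 0.83 and 0.72. IL33 was at 0.95 and 0.23, and PNP, a purine salvage gene, at 0.76 and 0.45. The 9 lower ones, GAS1, KCNJ8, RARRES2, AQP3, RASL11A, KCNH2, STARD5, OLFML2A and ATOH8, lay at -0.8 to -0.55 with all pairs and at -0.44 to -0.29 without replicate 4.

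COPB2 shRNA 2 offers a second hairpin against the same controls, and the difference between the hairpins was tested directly. Its replicate 4 library also held more CXCL8, 4670 CPM beside 62.8 to 239 CPM in replicates 1 to 3. Its replicate 2 library had a TMM scaling factor of 0.842, beside 0.984, 1.06 and 0.999 in replicates 1, 3 and 4. What set these libraries apart was not tested. With shRNA 2, 662 genes passed, 4.48% of those tested (1.55% lower). COPB2 was at 91.7, 86.2, 126 and 103 CPM with shRNA 2. Its log2 fold change was -2.24, and shRNA 2 minus shRNA 1 was -0.02 with a 95% interval of -0.2 to 0.17. DDIT3 was at 59.5, 71.9, 77.5 and 86.4 CPM with shRNA 2, higher than with shRNA 1 by 0.56 (interval 0.34 to 0.78, adjusted p 0.0304, edgeR). HERPUD1 was at 201, 225, 204 and 201 CPM with shRNA 2, higher by 0.48 (interval 0.28 to 0.69, adjusted p 0.0304), and its 2 hairpin groups did not overlap.

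Of the 35 called genes, 9 differed between the hairpins, where 8.62% of all genes did (4.27% higher with shRNA 2). The 35 were chosen on shRNA 1 values, which the difference shares, so no more is read from that count. Against the control, 30 of the 35 also passed with shRNA 2, where 4.48% of all genes did. Both hairpins share the control libraries, so that count is not separate support. CD274 (0.18), AKR1C1 (0.13), AKR1C2 (-0.21), SOD3 (-0.16) and TPMT (0.16) did not pass with shRNA 2. ATF4, PCK2 and CHAC1 were higher with shRNA 2 by 0.37, 0.55 and 0.64. AKR1C1, AKR1C2 and SOD3, lower with shRNA 1, were above it with shRNA 2 by 0.64, 0.51 and 0.37. CD274 was lower with shRNA 2 by 0.73 on the log2 scale (interval of the difference -1.04 to -0.43, adjusted p 0.0304, edgeR), at 5.48, 2.93, 5.94 and 4.94 CPM against 7.77, 5.37, 9.29 and 9.53 CPM. These calls rested on the block too, since no gene passed between the hairpins without it. Without replicate 4 of the control and shRNA 1 groups, DDIT3 and HERPUD1 still differed between hairpins (0.64 and 0.62, adjusted p 0.0115 and 0.00432), as did AKR1C1, ATF4, PCK2, CHAC1 and CD274, whereas AKR1C2 (0.43, adjusted p 0.0715) and SOD3 (0.41, adjusted p 0.0508) no longer passed.

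In DMSO-treated IMR90, which hold control libraries of their own, shRNA 1 lowered COPB2 from 335, 379, 465 and 398 CPM to 47.6, 48.9, 72.9 and 50.2 CPM. The log2 fold change was -2.86 (adjusted p 4.47e-13, edgeR). The remaining COPB2 was thus 54.9 ± 12.1 CPM in DMSO and 102 ± 13.1 CPM in bleomycin (SD, n = 4). In DMSO 6 genes passed, 0.0406% of those tested (0.0271% higher and 0.0135% lower), and 5.82% had an unadjusted p under 0.05 (2.62% lower). Of the 35 genes called in bleomycin, COPB2, MTHFD2 (0.52) and TCEA1 (0.56) passed there too. DDIT3 was at 33.5, 33.4, 29.6 and 33 CPM in the DMSO controls and at 32.4, 35.5, 34 and 31.8 CPM with shRNA 1, so the groups overlapped, with a log2 fold change of 0.05 (interval -0.17 to 0.27). HERPUD1 was at 0.23 (0.03 to 0.44, adjusted p 0.767) and COPB1 at 0.44 (adjusted p 0.0593).

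The interaction test asked whether the shRNA 1 effect differed between bleomycin and DMSO. No gene passed by edgeR, 760 of 14783 genes (5.14%) had an unadjusted p under 0.05, with 2.46% of genes higher and 2.69% lower, and DESeq2 called 2, COPB2 and PLEKHB1. For COPB2 the difference was 0.63 (interval 0.37 to 0.89, adjusted p 0.658), for DDIT3 it was 0.58 (0.26 to 0.89, adjusted p 0.822) and for HERPUD1 0.39 (0.1 to 0.68, adjusted p 0.894). COPB2 also passed with GC and length offsets, and PLEKHB1 also without bleomycin control replicate 1. The intervals of COPB2, DDIT3 and HERPUD1, each for its gene alone and not adjusted, lay above 0. For COPB2 that is a smaller reduction in bleomycin than in DMSO. These genes were called on bleomycin values that the interaction shares, so the intervals are descriptions and not separate support.

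In OIS, fitted and normalised apart with 3 replicates a group, shRNA 1 lowered COPB2 from 303, 397 and 573 CPM to 85.1, 79 and 98.6 CPM (log2 fold change -2.25). DDIT3 went from 24.9, 22.2 and 25.1 CPM to 90.5, 98.8 and 216 CPM, a log2 fold change of 2.36 (adjusted p 0.000284, edgeR), and HERPUD1 from 142, 89.1 and 117 CPM to 270, 277 and 369 CPM, 1.4 (adjusted p 0.00197). In both genes the OIS groups stood clear of each other. In all 72 genes passed there, 0.504% of those tested (0.0699% lower), and 9 of the 35 genes called in bleomycin were among them. The difference between OIS and bleomycin was not tested, because the 2 sets were normalised apart. The PERK and ATF4 list had medians of 0.4 in bleomycin, 0.19 in DMSO and 0.63 in OIS, and the SASP list 0.43, -0.15 and -0.29. Without replicate 4 the bleomycin medians were 0.31 for the PERK and ATF4 list and -0.03 for the SASP list.

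**Figure D5:**
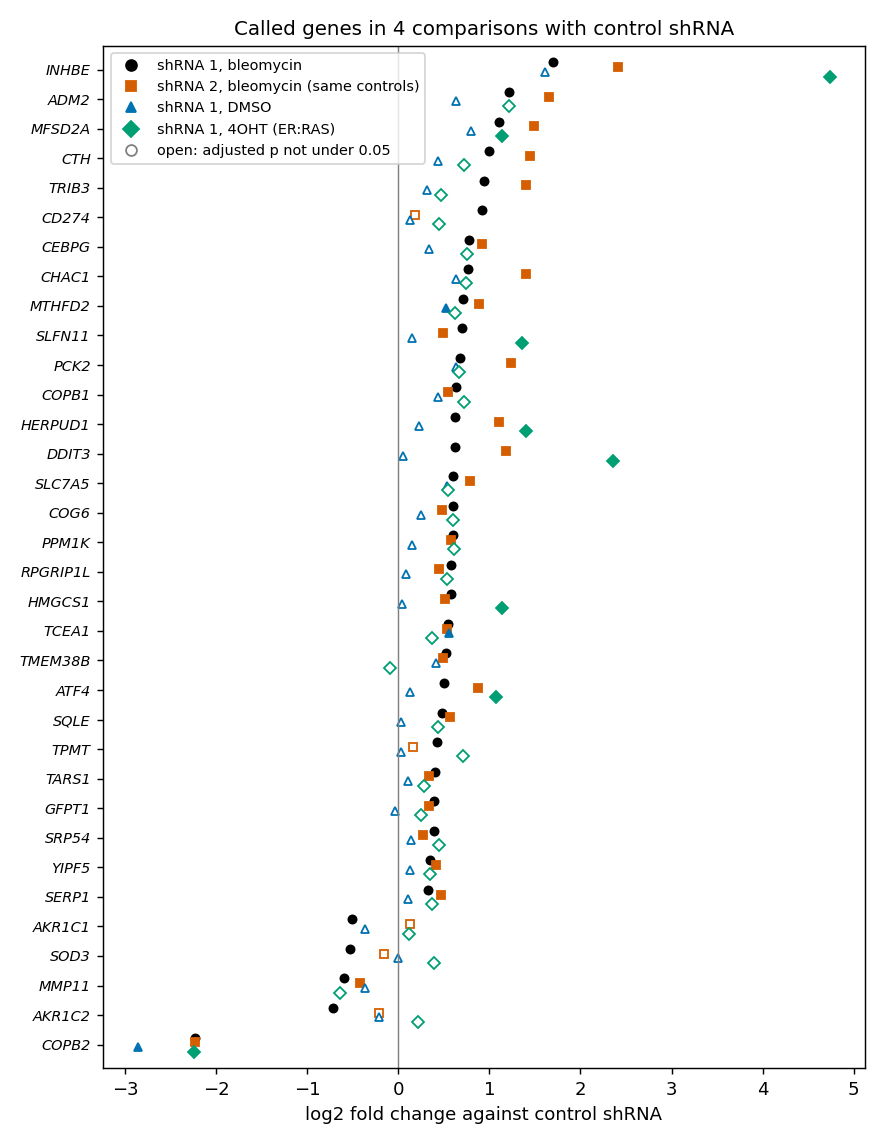
Log2 fold change against control shRNA (horizontal axis) of 34 of the 35 called genes in 4 comparisons, filled where the adjusted p was under 0.05. The shRNA 2 values share the control libraries of shRNA 1, DDIT3 ranges from 0.05 in DMSO to 2.36 in OIS, and COPB2 lies between -2.86 and -2.23 in all 4.

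The seed of COPB2.1 pairs with the letters ATATTTA, which 30.6% of 13271 tested genes with a matched 3′ UTR held there. With shRNA 1 in bleomycin the median log2 fold change was 0.102 for genes with these letters and -0.011 for the rest. With shRNA 2 the same genes had -0.078 and 0.029, and with shRNA 1 in DMSO 0.003 and -0.002. Genes with the letters had longer 3′ UTRs, with a median length of 2849 bases against 918. Split by 3′ UTR length with shRNA 1 in bleomycin, the medians were 0.034 against -0.04 in the shortest class and 0.124 against 0.035 in the longest. With shRNA 2 in bleomycin they were 0.065 against 0.13 in the shortest and -0.113 against -0.103 in the longest. The shRNA 2 medians thus varied with 3′ UTR length, also among genes without the letters. The seed letters of COPB2.2, which shRNA 1 does not carry, gave medians of 0.112 and 0.004 with shRNA 1. The median of the genes with the letters was the higher one with shRNA 1 in bleomycin. Of the 4 genes called lower beside COPB2, AKR1C1 and AKR1C2 held it once each, and 5 of the 30 genes called higher held it, GFPT1 with 5 copies among them.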

How the data were processed

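Poly(A) RNA of IMR90 fibroblasts was sequenced by the authors and deposited as raw read counts per gene symbol for 42 libraries, with every column assigned by its name. The submitters' notes name DRAGEN, STAR 2.7.8a, DESeq2 1.32.0 and hg38, whereas the study's methods name an older aligner, build and annotation. The 2 accounts differ, so the build is unsettled, and the counting mode and its strand setting are not given in the sources used here. Splitting of reads between paralogues or overlapping genes can therefore change single values.

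Counts were tested with edgeR 4.0.16 in R 4.3.3 (TMM, filterByExpr, robust quasi-likelihood F-test, two-sided) over the 24 IMR90 libraries. The model held the group and the replicate number within each treatment, with 12 residual degrees of freedom. P-values were adjusted by Benjamini-Hochberg over all 14783 genes, and genes under 0.05 were called. SEs were taken from the F statistic. CPM values use TMM library sizes, and pair differences are log2 CPM with a prior count of 2. The numbers paired the samples: the deviations of same-numbered control and shRNA 1 libraries from their group means correlated at 0.44, 0.78, 0.66 and 0.66, against at most 0.14 for other numbers. Centring on the group means lowers the other-number values when the same-number ones are positive, so this gap is partly built in. OIS libraries were fitted alone in the same way. No 2 of the 24 libraries were identical. Simulated counts were used to test the scripts.

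Named genes were COPB2, DDIT3, HERPUD1, the called genes, the 12 highest and 12 lowest log2 fold changes among genes that moved one way in all 4 pairs and averaged 100 counts or more in whichever group was higher, and list members. The members and lists were chosen with earlier results of these data known. PLEKHB1 was named after its value was seen. Lists are described by counts and medians, without a set test. Coordinates and 3′ UTRs are from GENCODE v44lift37 on GRCh37, which matched 96.3% of the genes tested. Promoter windows are from RefSeq on GRCh38.p14. Alternatives were DESeq2 1.42.0, other blocks, size factors, filters, offsets for GC and length, and libraries left out. Some genes, 1 called gene among them, count in the totals and are not reported here by name.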

Additional observations from a re-analysis of the deposited data

Results flagged for a closer look

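Dixon's test at its 95% critical value was run on 100 sets of 4 libraries. The sets were the called genes and those of the naming rule, in each group. In 9 sets a library stood apart from the other 3. The genes were chosen on values of these same libraries, so the count cannot be set against a chance rate. All 9 were replicate 4. In the shRNA 1 group they were HERPUD1 at 190 CPM, MFSD2A at 31.8 CPM, CSF3 at 404 CPM, IL33 at 44.7 CPM and IL11 at 728 CPM. In the control group they were CTH at 5.35 CPM, CSF3 at 25.7 CPM, IL33 at 14 CPM and IL11 at 167 CPM. What set replicate 4 apart was not tested.

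For 9 called genes shRNA 2 and shRNA 1 differed past the threshold in bleomycin (edgeR, shRNA 2 minus shRNA 1 on the log2 scale). The differences were 0.51 for AKR1C2, 0.37 for SOD3, 0.64 for AKR1C1, 0.37 for ATF4, 0.56 for DDIT3, 0.48 for HERPUD1, 0.55 for PCK2, 0.64 for CHAC1 and -0.73 for CD274. Of 19 alternatives, AKR1C1 passed in 16, HERPUD1 in 10, DDIT3, ATF4, PCK2 and CHAC1 in 9 each, CD274 in 8, AKR1C2 in 7 and SOD3 in 6. With SOD3 as the exception, at -0.03 to 0.51, the sign of each difference held in all 19.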

How the results depend on the processing

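COPB2 passed under all 20 alternatives for the main comparison (-2.33 to -2.16), MTHFD2 under 17 and COPB1 under 16, and all 35 called genes kept their direction under all 20. The 35 calls became 1 without the replicate block, 3 with a block shared by both treatments, 165 with DESeq2's Wald test, 109 with GC and length offsets, 1 with the 12 bleomycin libraries alone, 1 with the 8 libraries compared and 4 with a log2 change of at least 1. Leaving out libraries gave 3 to 208, the last without shRNA 1 replicate 3, 119 without both libraries of replicate 3, and 3 without both of replicate 1, without both of replicate 4 or without control replicate 1, 3 or 4 or shRNA 1 replicate 1, while shRNA 1 replicate 2 or 4 and control replicate 2 left 16, 6 and 18. The cause was not tested.

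DDIT3 and HERPUD1 missed the threshold at 0.62 and 0.63 without the replicate block, 0.62 and 0.63 with the shared block, 0.62 and 0.62 with 12 libraries, and 0.62 and 0.62 with 8, with adjusted p of 0.217 to 1. With libraries left out they lay at 0.53 to 0.72 and 0.48 to 0.73. Both missed the threshold without both libraries of replicate 1 or of replicate 4. DDIT3 and HERPUD1 each passed under 9 of the 20 alternatives. Over the left-out libraries IL6 lay at -0.14 to 1.1, IL1A at -0.02 to 1.73 and MMP3 at -0.03 to 1.66. Without both libraries of replicate 4, IL6 went to -0.14, IL1A to -0.02 and MMP3 to -0.03, and without the shRNA 1 library of replicate 4 alone IL6 went to -0.13 and MMP3 to -0.01.

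For shRNA 2 minus shRNA 1 in bleomycin the 1274 calls became 0 without the replicate block, 0 with the shared block, 741 without a filter, 2852 with DESeq2, 234 with GC and length offsets and 0 with 12 libraries, and 1 to 4348 without libraries. The interaction gave 2 calls with DESeq2, 1 with GC and length offsets and 0 to 1 without libraries.

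Chosen after seeing the data, the same refits changed the 662 calls of shRNA 2 against control in bleomycin to 11 without the replicate block, 28 with the shared block, 1425 with DESeq2, 1007 with offsets and 18 with 12 libraries, and to 106 to 2809 without libraries. The 6 calls in DMSO became 1 without the replicate block, 1 with the shared block, 15 without a filter, 67 with DESeq2, 107 with offsets and 1 to 4 without libraries. The 72 calls in OIS became 20 without the replicate block, 223 with DESeq2 and 5 to 80 without libraries.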
